A study of Rattus norvegicus with 10 samples.

Results

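Solute carriers are membrane proteins that move nutrients, ions, vitamins and drugs across cell membranes. The 133 solute carrier genes described here were selected on measured values, as those with a mean log2 intensity of at least 6 over all 10 arrays, out of 259 solute carrier genes that the array named with a single symbol once the mitochondrial Slc25 family and the bile acid carriers Slc10a2, Slc51a and Slc51b were left out. A gene with several probe sets is described by the brightest of them, so the levels themselves are a description and were not tested. Genes were classed mostly by family name. A class can thus hold members with another substrate, such as the urate carrier Slc2a9 among the sugar carriers. The metal ion class held 23 genes, amino acids and peptides 22, organic anions and cations 19 and inorganic ions 19. Vitamins and lipids had 18, nucleotide sugars 16, sugars 7 and nucleosides 3. The remaining 6 were grouped as other and include Slc7a6os, which lies opposite a carrier gene and is no carrier itself.

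RNA came from jejunum, and the male Sprague Dawley rats had been gavaged once a day for 5 days with vehicle (hydroxypropylmethylcellulose) or with A-998679 and fasted overnight after the last dose. A-998679 acts on nicotinic acetylcholine receptors and also activates the aryl hydrocarbon receptor (AhR). Each array held 1 rat, with 3 vehicle rats, 2 rats at 30 mg/kg/day, 3 at 100 mg/kg/day and 2 at 200 mg/kg/day, so p-values measure the spread between rats. The comparison asks whether repeated oral dosing changed transcripts of the carriers that the jejunum uses to absorb nutrients.

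In the jejunum, a sodium pump in the basolateral membrane keeps sodium low in the enterocyte, and carriers of the brush border use that gradient to bring in glucose, amino acids, nucleosides, phosphate and vitamins. Other carriers then release the nutrients toward the blood, either by facilitated diffusion or by exchange. Exchangers of sodium for protons and of chloride for bicarbonate set salt and fluid absorption, and zinc, iron and copper have carriers of their own at each membrane.

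None of the 133 carriers passed an adjusted p of 0.05 by limma in any comparison or in the F test over the 3 doses. The carrier that stood furthest out was Slc16a10, the aromatic amino acid carrier that lets tryptophan, tyrosine and phenylalanine out of the enterocyte. It lay 3.54-fold higher at 200 mg/kg than at 100 mg/kg, with a log2 difference of 1.82 ± 0.23 (SE) and an adjusted p of 0.0685 by limma. The purine nucleoside carrier Slc28a2 and the amino acid carrier Slc6a14 lay above every vehicle rat at both upper doses, and the brush border sodium and proton exchanger Slc9a3 did so at 200 mg/kg, without passing the threshold. Slc2a4, Slc24a3 and Slc8a1, which are known from muscle and other excitable cells, lay lower at 100 and 200 mg/kg together with smooth muscle genes of the gut wall. Slc8a2 and Slc6a7, which are known from neurons, lay above every vehicle rat at 100 mg/kg instead. At 200 mg/kg Slc8a2 lay below every vehicle rat and Slc6a7 above. The main sugar carriers of the enterocyte overlapped between vehicle and every dose.

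The sequences before the gene start of Slc16a10 and Slc6a14 are shown because these members had the lowest adjusted p between 200 and 100 mg/kg and between 200 mg/kg and vehicle. They come from RefSeq (rat build GRCr8), hold the 250 bases before the start of the gene on its own strand, and run 5′ to 3′. Slc16a10 lies at chr20:45122359-45122608 (minus strand) and Slc6a14 at chrX:117144676-117144925 (plus strand), and capitals mark the AhR core GCGTG on either strand.
Slc16a10: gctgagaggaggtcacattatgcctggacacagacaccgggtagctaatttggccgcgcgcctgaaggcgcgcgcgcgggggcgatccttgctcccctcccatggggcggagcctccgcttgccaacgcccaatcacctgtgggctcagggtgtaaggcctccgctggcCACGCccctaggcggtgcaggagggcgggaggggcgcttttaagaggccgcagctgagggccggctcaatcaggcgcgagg
Slc6a14: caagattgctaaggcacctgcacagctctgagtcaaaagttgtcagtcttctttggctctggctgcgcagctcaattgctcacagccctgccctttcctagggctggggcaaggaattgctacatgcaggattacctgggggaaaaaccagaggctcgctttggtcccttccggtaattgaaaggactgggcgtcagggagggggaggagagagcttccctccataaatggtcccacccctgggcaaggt
The AhR core was found once before Slc16a10 and 0 times before Slc6a14. Of 27457 promoters of all genes, 27.2% held it, against 50 (44.2%) of the 113 members with a promoter sequence. Of the motifs scanned, the AhR core had the largest gap. The metal response core was held by 25.7% of these members against 21.2% of all promoters. For the amino acid response core the shares were 3.54% and 3.27%, and for the HNF1 motif GTTAAT 4.42% and 6.46%. Members were chosen for brightness and were compared with all genes, so whether the gap is particular to carriers was not tested. A motif match describes the letters only, and binding was not measured here.

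Array medians lay between 5.86 and 5.90 on the log2 scale, and 11.0% to 11.3% of probe sets were blank per array, but no member had a blank. Enterocyte markers were bright, with a mean log2 intensity of 12.5 for Fabp2 and 12.0 for Vil1. The 5 measured genes of a distal small intestine list were mixed. The ileal marker Fabp6 was at 5.19, Slc10a2 at 5.78 and Gcg at 5.999, while Slc51a was at 10.56 and Cubn at 9.93. Vehicle rat 1 stood apart from the other vehicle rats. Its smooth muscle score, a mean over 13 measured of 14 listed muscle genes of the log2 difference from the vehicle mean, was -0.50 against 0.24 and 0.26, and its liver score, over 9 genes, was 1.34 against -0.32 and -1.02. In bulk tissue, fewer cells of a type and less RNA per cell cannot be told apart.

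Among the vehicle rats, vehicle rat 1 held the highest value for 82 of 133 members (61.7%) against 40.2% of all probe sets tested, and vehicle rat 3 the lowest for 71 members (53.4%) against 33.9%. The enterocyte score, over 15 measured of 18 listed genes, was 0.20, 0.02 and -0.22 in vehicle rats, 0.02 and 0.32 at 30 mg/kg, 0.23, 0.17 and 0.34 at 100 mg/kg and -0.07 and 0.50 at 200 mg/kg. Of its 15 genes, 14 lay above the vehicle mean at 100 mg/kg and 13 at 200 mg/kg, and 0 were called by limma. Many nutrient carriers had a wide vehicle range in which vehicle rat 1 lay near the treated rats, and the part of tissue composition in this was not tested. The within-group SD of the members had a median of 0.245 log2 units, from 0.058 for Slc35e1, an orphan member of the nucleotide sugar family, to 0.910 for Slc5a5, the sodium iodide carrier, and the median over all probe sets was 0.247.

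At 30 mg/kg, 81 members lay above and 52 below the vehicle mean, with a median log2 fold change of 0.06. At 100 mg/kg the counts were 93 and 40 with a median of 0.12, and at 200 mg/kg they were 85 and 48 with a median of 0.11. The median over all 17736 probe sets tested was 0.01 at each dose. Between 200 and 100 mg/kg, 75 members lay higher and 58 lower, with a median of 0.04. The vehicle rats alone had member medians of 0.19, -0.03 and -0.13 about their mean, a range wider than the shift at any dose. The member median was -0.07 and 0.16 in the rats at 30 mg/kg, 0.11, 0.15 and 0.18 at 100 mg/kg and 0.04 and 0.20 at 200 mg/kg. Within each group its order over the rats was that of the enterocyte score, except between 100 mg/kg rats 1 and 2.

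At 30 mg/kg, 0 members were called against a background of 0.0113% of all probe sets. By unadjusted p of up to 0.05, limma gave 1 member higher and 2 lower (background 1.82% and 2.83%), and the methods' t-test gave 1 (0.752%, background 3.48%). The groups did not overlap for 6 members higher and 7 lower, or 4.51% and 5.26% of the members, where 7.31% and 9.27% of all probe sets were apart. Both counts of members were below the background.

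At 100 mg/kg, 0 members were called against a background of 0.0113%, and the lowest adjusted p was 0.142 for Slc2a4. At an unadjusted p of up to 0.05, 15 members were higher and 8 lower by limma (background 8.59% and 9.41%) and 15 in all by the methods' t-test (background 13.3%). The 15 and 8 were 11.3% and 6.02% of the members. The groups were apart for 17 members higher (12.8%, background 11.4%) and 12 lower (9.02%, background 13.3%).

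At 200 mg/kg, 0 members were called against 0.0226% of all probe sets, and the lowest adjusted p was 0.174 for Slc6a14. At an unadjusted p of up to 0.05, 16 members were higher (12.0%, background 5.71%) and 6 lower (4.51%, background 6.66%) by limma, and 7 in all by the methods' t-test (5.26%, background 6.42%). The groups were apart for 23 members higher (17.3%, background 12.2%) and 11 lower (8.27%, background 12.9%). Both counts of higher members include Slc30a2 and Slc2a9, which reached the level of 6 only through the 200 mg/kg rats and had means of 5.93 and 5.91 over the other 8 arrays. The shares were above the background for higher members by limma and below it by the methods' t-test, which counted both directions. The enterocyte score was higher in 1 of the 2 rats of this dose than in any vehicle rat, and its part in these counts was not tested.

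Between 200 and 100 mg/kg, 0 members were called against 0.0226%, and at an unadjusted p of up to 0.05, 6 were higher and 4 lower by limma (background 2.71% and 3.34%) and 13 differed by the methods' t-test (9.77%, background 8.43%). The groups were apart for 22 members higher (16.5%, background 13.9%) and 17 lower (12.8%, background 12.8%). The 22 include Slc30a2 and Slc2a9, and the 6 include Slc30a2. Both genes reached the level of 6 only through the 200 mg/kg rats, so the choice of members favoured these higher values. In the F test over the 3 doses, 0 members and 0.0451% of all probe sets were called. The 3 comparisons with vehicle share the vehicle rats, so their counts are not independent. Across doses, 11 members (8.27%, background 4.79%) lay above every vehicle rat at both 100 and 200 mg/kg and 5 (3.76%, background 5.89%) lay below at both. A further 1 member (0.752%, background 0.158%) was below at 100 and above at 200 mg/kg, and 1 was the reverse (background 0.226%).

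**Figure D1:**
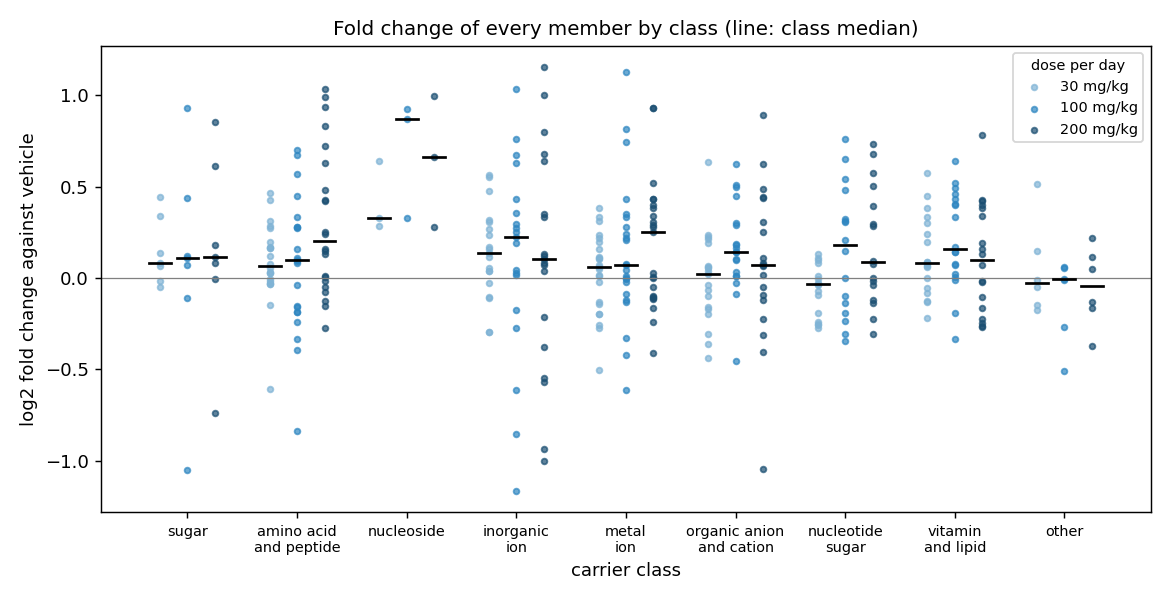
Log2 fold change against vehicle (vertical axis) of each of the 133 carriers, by carrier class (horizontal axis) and dose (colour), with a line at the class median. The 3 nucleoside carriers lie above 0 at each dose, and the sugar and inorganic ion classes hold members on both sides, from -1.17 to 1.03 among inorganic ion carriers at 100 mg/kg.

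The 7 sugar carriers had class medians of 0.08, 0.11 and 0.11 at 30, 100 and 200 mg/kg. Slc5a1, which brings glucose and galactose in with sodium across the brush border, had log2 intensities of 11.15, 10.45 and 9.12 in vehicle rats, 10.13 and 10.61 at 30 mg/kg, 10.90, 11.12 and 11.48 at 100 mg/kg and 10.31 and 11.39 at 200 mg/kg. The vehicle rats spanned more than the treated groups did, and every group overlapped with vehicle. At 100 mg/kg its log2 fold change was 0.93 ± 0.49 (SE), with an adjusted p of 0.333 by limma.

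Slc2a2, through which glucose leaves the enterocyte, was at 11.42, 11.23 and 10.96 in vehicle rats and between 11.14 and 11.43 in the treated rats, with log2 fold changes from -0.02 to 0.11. Slc2a5, the fructose carrier, was at 9.94, 9.73 and 9.58 in vehicle rats and between 9.61 and 10.02 in treated rats, with log2 fold changes from 0.07 to 0.12. Both carriers were nearly level over the 4 groups. Slc5a11, a myo-inositol carrier, and Slc50a1, a sugar efflux carrier, also overlapped with vehicle at each dose. Slc2a9, known foremost as a urate carrier, was at 6.36, 5.26 and 5.36 in vehicle rats and at 6.40 and 6.63 at 200 mg/kg, so that the groups were apart by little. It reached the level of 6 only through these rats and was the member closest to the level that made a gene a member, with a mean of 6.03.

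Slc2a4, the insulin-regulated glucose carrier of muscle and fat, went the other way. Its log2 intensity was 7.37, 8.17 and 8.20 in vehicle rats, 8.47 and 8.24 at 30 mg/kg, 7.0, 6.68 and 6.90 at 100 mg/kg and 7.07 and 7.27 at 200 mg/kg. Both rats at 30 mg/kg lay above every vehicle rat, and all 5 rats at the upper doses lay below every vehicle rat, vehicle rat 1 being the closest. The log2 fold change was 0.45 ± 0.25 (SE), -1.05 ± 0.23 and -0.74 ± 0.25 at the 3 doses, with adjusted p-values by limma of 1, 0.142 and 0.308. Without vehicle rat 1 it was called at 100 mg/kg (adjusted p = 0.0153, limma) and at 200 mg/kg (0.0403). The fit without this rat, also cited for carriers below, called 12.5% of all probe sets at 100 mg/kg and 2.38% at 200 mg/kg. Leaving out vehicle rat 2 or vehicle rat 3 instead called 0 members at either dose. A call that needs vehicle rat 1 left out is thus not particular to a carrier. A second probe set of Slc2a4 had log2 fold changes of 0.54, -0.60 and -0.68.

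Slc24a3, a potassium-dependent sodium and calcium exchanger, was at 6.85, 7.70 and 7.90 in vehicle rats, 8.28 and 7.81 at 30 mg/kg, 6.58, 6.54 and 5.82 at 100 mg/kg and 6.54 and 6.43 at 200 mg/kg. Slc8a1, the sodium and calcium exchanger of the heart and other muscle, was at 6.97, 7.50 and 7.94 in vehicle rats, 7.63 and 7.39 at 30 mg/kg, 6.61, 6.71 and 6.54 at 100 mg/kg and 6.71 and 6.36 at 200 mg/kg. For both exchangers all 5 rats at the upper doses lay below every vehicle rat. At 100 mg/kg the log2 fold change was -1.17 ± 0.31 (SE) for Slc24a3 and -0.85 ± 0.23 for Slc8a1, with adjusted p-values by limma of 0.168 and 0.177, and at 200 mg/kg it was -1.0 ± 0.35 and -0.94 ± 0.26. Without vehicle rat 1 the adjusted p by limma was 0.0203 and 0.0192 at 100 mg/kg and 0.0544 and 0.0413 at 200 mg/kg.

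The smooth muscle score moved with these carriers. It was -0.50, 0.24 and 0.26 in vehicle rats, 0.40 and 0.06 at 30 mg/kg, -0.85, -0.88 and -0.86 at 100 mg/kg and -0.48 and -0.77 at 200 mg/kg, with 13 of 13 measured genes below the vehicle mean at 100 mg/kg and at 200 mg/kg. The score over 8 measured of 12 listed genes of enteric neurons and glia ran alongside, at -0.40, 0.12 and 0.27 in vehicle rats, 0.38 and 0.17 at 30 mg/kg, -0.74, -0.98 and -0.96 at 100 mg/kg and -0.91 and -0.71 at 200 mg/kg. The part of muscle or nerve content in the lower values of Slc2a4, Slc24a3 and Slc8a1 was not tested.

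**Figure D2:**
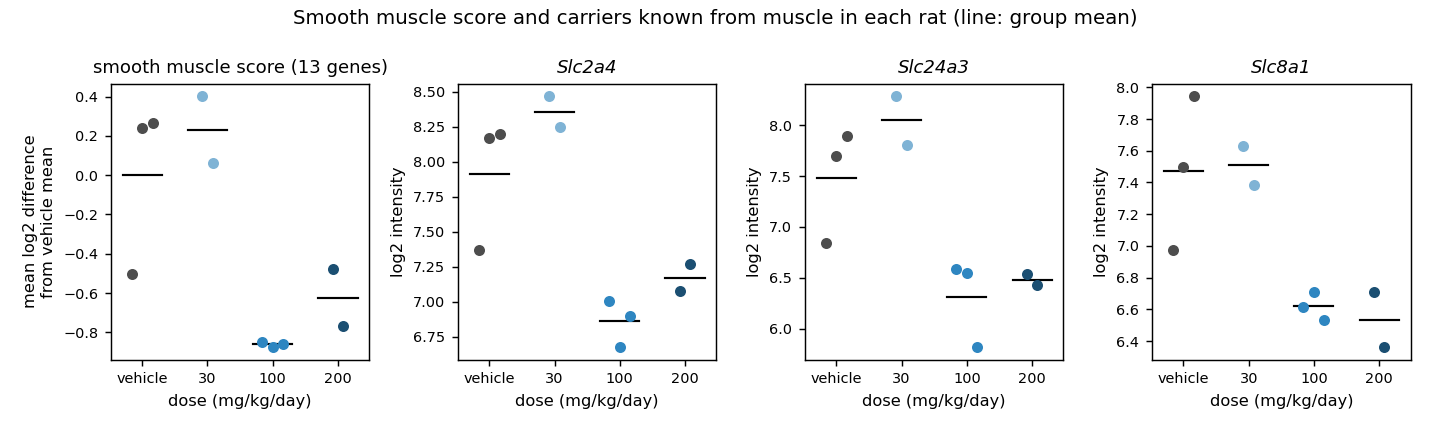
Smooth muscle score (mean log2 difference of 13 genes from the vehicle mean) and log2 intensity of Slc2a4, Slc24a3 and Slc8a1 (vertical axes) in each rat by dose (horizontal axis), with a line at the group mean. The 3 rats at 100 mg/kg lie between -0.88 and -0.85 in the score, and vehicle rat 1, at -0.50, is also the lowest vehicle rat for each carrier.

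Slc12a2, which loads chloride into secretory cells across the basolateral membrane, had log2 intensities of 10.02, 10.74 and 10.99 in vehicle rats, 11.09 and 10.40 at 30 mg/kg, 9.98, 9.97 and 9.95 at 100 mg/kg and 10.33 and 10.09 at 200 mg/kg. The 100 mg/kg rats lay just below vehicle rat 1, and the 200 mg/kg rats overlapped with vehicle. Its log2 fold change at 100 mg/kg was -0.62 ± 0.26 (SE), with an adjusted p of 0.270 by limma, and it was called there without vehicle rat 1 (adjusted p = 0.0374, limma).

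The 22 amino acid and peptide carriers had medians of 0.06, 0.10 and 0.20 at the 3 doses, and at 200 mg/kg 7 of them lay above every vehicle rat and 0 below, where 12.2% and 12.9% of all probe sets did. In Slc16a10 the log2 intensity was 7.19, 7.16 and 7.18 in vehicle rats, 7.50 and 7.48 at 30 mg/kg, 5.83, 6.67 and 6.53 at 100 mg/kg and 8.17 and 8.17 at 200 mg/kg. Each group was apart from every other, in the order 100 mg/kg, vehicle, 30 mg/kg and 200 mg/kg, so the order did not follow the dose. Against vehicle the log2 fold change was 0.31 ± 0.23 (SE), -0.84 ± 0.20 and 0.99 ± 0.23, with adjusted p-values by limma of 1, 0.153 and 0.199. The array held 1 probe set for the gene, so the pattern had no second probe set beside it. The test between 200 and 100 mg/kg passed the threshold under 4 of 18 other settings, among them without 100 mg/kg rat 1, with adjusted p-values from 0.0251 to 0.245 over all 18.

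Slc6a14, a broad amino acid carrier driven by sodium and chloride, was at 6.04, 5.95 and 6.39 in vehicle rats, 6.47 and 6.12 at 30 mg/kg, 6.68, 6.48 and 6.57 at 100 mg/kg and 7.01 and 7.11 at 200 mg/kg. Both upper doses lay above every vehicle rat and 200 mg/kg above 100 mg/kg. The log2 fold change was 0.16 ± 0.18 (SE), 0.45 ± 0.16 and 0.93 ± 0.18, and the adjusted p at 200 mg/kg was 0.174 by limma.

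Slc7a9, the light chain of the brush border cystine and dibasic amino acid carrier, was at 10.67, 9.84 and 9.34 in vehicle rats, 9.77 and 10.12 at 30 mg/kg, 10.52, 10.33 and 10.70 at 100 mg/kg and 10.80 and 10.76 at 200 mg/kg. At 200 mg/kg both rats lay above every vehicle rat, with vehicle rat 1 close to them, and the other doses overlapped. Without vehicle rat 1 it was called at 100 and 200 mg/kg, with adjusted p-values by limma of 0.0298 and 0.0427. Its heavy chain Slc3a1 overlapped with vehicle at each dose, with log2 fold changes of 0.29, 0.33 and 0.48. Slc3a2, the heavy chain shared by basolateral exchangers, was at 10.55, 9.80 and 9.74 in vehicle rats and at 10.53 and 10.97 at 200 mg/kg, a log2 fold change of 0.72 ± 0.28 (SE) with overlapping groups. Slc7a7, its light chain for cationic amino acids, was nearly level at -0.01, 0.08 and 0.16.

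Slc15a1, which brings in dipeptides and tripeptides with protons, was at 11.23, 10.96 and 10.67 in vehicle rats and between 10.76 and 11.78 in treated rats. Slc6a20a, an imino acid carrier named because it stood at the top of its class at 200 mg/kg, was at 8.63, 7.65 and 7.11 in vehicle rats and at 8.06 and 9.60 at 200 mg/kg. Both carriers overlapped with vehicle at each dose. Slc6a7, a proline carrier known from neurons, was at 5.93, 6.01 and 6.01 in vehicle rats, 6.15, 6.87 and 7.03 at 100 mg/kg and 6.02 and 6.43 at 200 mg/kg, so that the upper doses lay above vehicle but 100 mg/kg rat 1 and 200 mg/kg rat 1 by little.

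Slc1a1, the glutamate and aspartate carrier, had values of 6.77, 6.65 and 6.06 in vehicle rats and 5.81 and 5.96 at 30 mg/kg. It was below every vehicle rat at 30 mg/kg but not at the upper doses. Across the 3 doses its log2 fold change was -0.60 ± 0.21 (SE), -0.04 ± 0.19 and -0.27 ± 0.21. A second probe set of Slc1a1, with a mean of 6.06 against 6.30, gave -0.04, -0.03 and -0.19, so it did not share the lower value at 30 mg/kg.

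**Figure D3:**
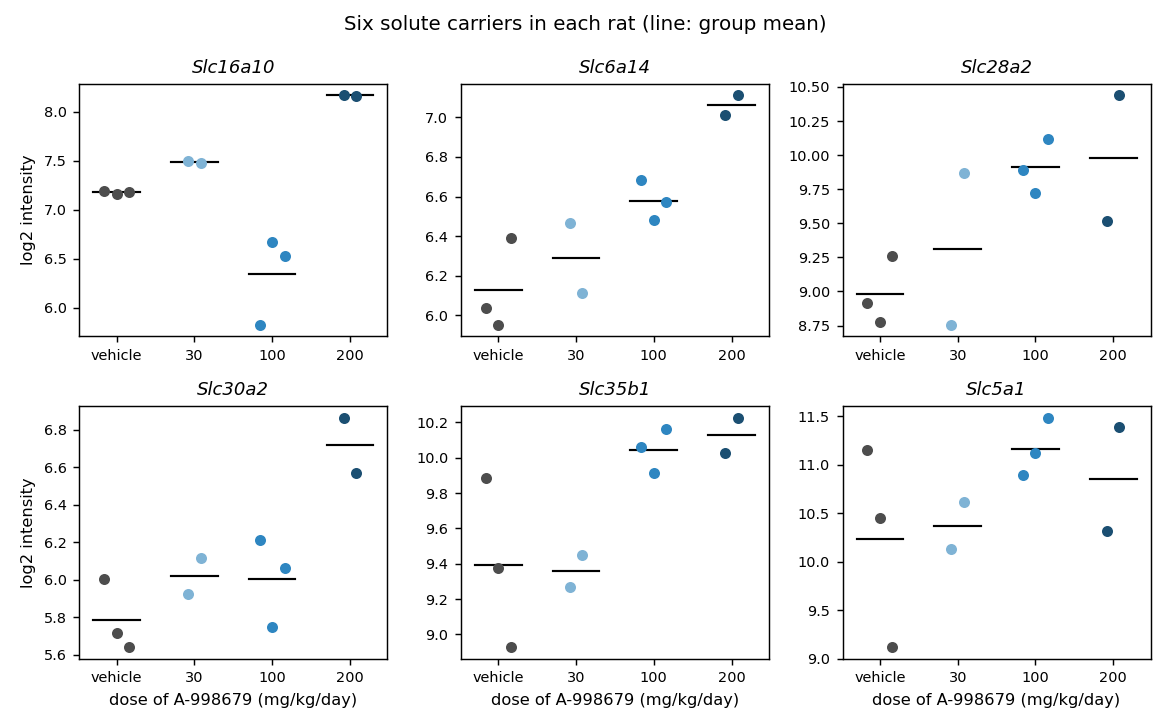
Log2 intensity (vertical axis) of Slc16a10, Slc6a14, Slc28a2, Slc30a2, Slc35b1 and Slc5a1 in each rat by dose of A-998679 (horizontal axis), with a line at the group mean. Slc16a10 is tight in vehicle rats, from 7.16 to 7.19, low at 100 mg/kg and at 8.17 in both rats at 200 mg/kg, whereas vehicle rats span 9.12 to 11.15 for Slc5a1.

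All 3 nucleoside carriers lay above the vehicle mean at each dose, with medians of 0.33, 0.87 and 0.66. Slc28a2, the sodium-driven purine nucleoside carrier of the brush border, had log2 intensities of 8.92, 8.77 and 9.26 in vehicle rats, 8.76 and 9.87 at 30 mg/kg, 9.89, 9.72 and 10.12 at 100 mg/kg and 9.52 and 10.44 at 200 mg/kg. All 5 rats of the upper doses lay above every vehicle rat, while the rats at 30 mg/kg fell on either side of the vehicle range. At these doses it differed by 0.93 ± 0.33 (SE) and 0.99 ± 0.36 on the log2 scale, with adjusted p-values by limma of 0.223 and 0.326.

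Slc28a1, the pyrimidine nucleoside counterpart, was at 7.96, 7.11 and 5.77 in vehicle rats, 7.2 and 7.98 at 30 mg/kg, 7.77, 7.60 and 8.09 at 100 mg/kg and 6.83 and 8.39 at 200 mg/kg. The groups overlapped, and at 200 mg/kg the fold change turned to -0.12 without 200 mg/kg rat 2. Slc29a3, an equilibrative nucleoside carrier of lysosomes, lay above every vehicle rat at both upper doses. Its log2 fold changes were 0.33 and 0.28, but a second probe set gave -0.43 and -0.33. The sodium-independent carrier Slc29a1 did not reach the level of 6, with a mean of 5.12.

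**Figure D4:**
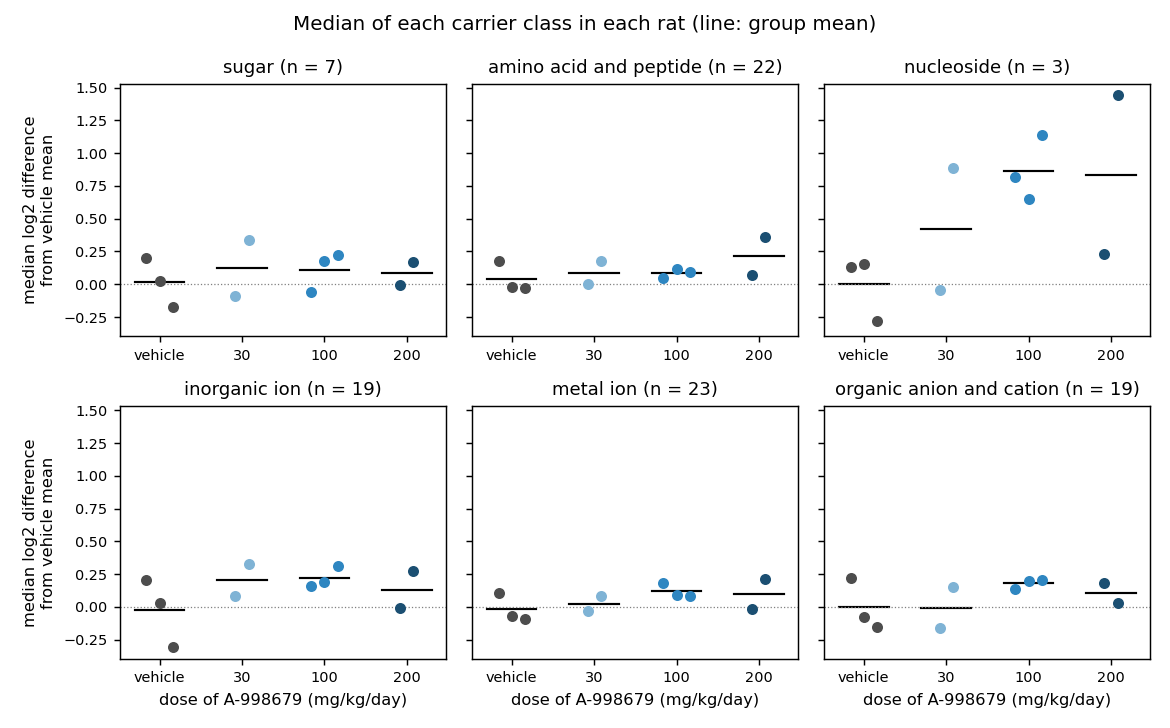
Median log2 difference from the vehicle mean (vertical axis) over the carriers of 6 carrier classes in each rat, by dose of A-998679 (horizontal axis), with a line at the group mean. Nucleoside carriers, 3 genes, lie between 0.65 and 1.13 at 100 mg/kg, whereas the sugar carriers, 7 genes, lie between -0.06 and 0.22 there, within the vehicle range of -0.17 to 0.20 in all but 1 rat.

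The 19 inorganic ion carriers had medians of 0.14, 0.23 and 0.10 and held the muscle-known exchangers above as well as the salt carriers of the enterocyte. Slc9a3, the brush border exchanger that takes in sodium for protons, was at 9.55, 8.87 and 8.37 in vehicle rats, 8.61 and 9.33 at 30 mg/kg, 9.73, 9.30 and 9.79 at 100 mg/kg and 9.93 and 9.94 at 200 mg/kg. The 200 mg/kg rats lay above every vehicle rat, and 100 mg/kg overlapped through vehicle rat 1. It stood 2.01-fold higher at 200 mg/kg, a log2 fold change of 1.00 ± 0.35 (SE), with an adjusted p of 0.308 by limma. At 100 mg/kg the log2 fold change was 0.68 ± 0.31, called without vehicle rat 1 (adjusted p = 0.0482, limma).

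Slc26a3, the chloride and bicarbonate exchanger that works beside Slc9a3, was at 9.03, 8.52 and 8.08 in vehicle rats, 8.33 and 9.03 at 30 mg/kg, 9.17, 9.24 and 9.50 at 100 mg/kg and 8.37 and 9.42 at 200 mg/kg. It lay above every vehicle rat at 100 mg/kg only, and the rats at 200 mg/kg were far apart. Its log2 fold change at 100 mg/kg was 0.76 ± 0.33 (SE), with an adjusted p of 0.276 by limma. The related exchanger Slc26a6 overlapped with vehicle throughout, with log2 fold changes of 0.12, 0.19 and 0.33.

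Slc4a7, a sodium bicarbonate cotransporter, was at 7.99, 8.13 and 8.20 in vehicle rats, 8.60 and 8.24 at 30 mg/kg, 8.35, 8.31 and 8.48 at 100 mg/kg and 8.56 and 9.25 at 200 mg/kg. Every treated rat lay above every vehicle rat, although 30 mg/kg rat 2 did so by little. At 200 mg/kg it differed by 0.80 ± 0.21 (SE) on the log2 scale, with an adjusted p of 0.232 by limma, and at 100 mg/kg a second probe set gave -0.04 against 0.28. Slc4a4, the basolateral sodium bicarbonate carrier, overlapped with vehicle at each dose, and vehicle rat 1 (9.33) was level with 200 mg/kg rat 1 (9.33).

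Slc13a1, the sodium sulfate carrier, had values of 7.81, 6.79 and 6.25 in vehicle rats, 7.33 and 7.68 at 30 mg/kg, 7.65, 8.06 and 8.24 at 100 mg/kg and 7.54 and 8.67 at 200 mg/kg. Vehicle rat 1 lay inside the range of the treated rats while the other vehicle rats lay below all of them. At the upper doses it differed by 1.03 ± 0.42 (SE) and 1.15 ± 0.47 on the log2 scale, and a second probe set gave 1.37 and 1.16.

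Both phosphate carriers among the named genes behaved differently. Slc34a2 was at 10.13, 10.09 and 9.26 in vehicle rats and between 9.68 and 10.39 in treated rats, and overlapped at each dose. Slc20a1 was at 10.64, 10.25 and 10.63 in vehicle rats, 10.35, 10.65 and 10.59 at 100 mg/kg and 9.73 and 10.18 at 200 mg/kg, where it lay below every vehicle rat. Its log2 fold change there was -0.55 ± 0.23 (SE), with an adjusted p of 0.387 by limma. Slc8a2, a sodium and calcium exchanger known from neurons, was at 7.34, 7.32 and 7.16 in vehicle rats, 7.48, 7.46 and 7.76 at 100 mg/kg and 6.48 and 6.92 at 200 mg/kg. It thus lay above vehicle at 100 mg/kg and below it at 200 mg/kg, a log2 difference of -0.87 ± 0.22 (SE) between the upper doses with an adjusted p of 0.402 by limma.

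The 23 metal ion carriers had medians of 0.06, 0.07 and 0.25. Slc30a2, which moves zinc out of the cytosol into vesicles, was at 6.01, 5.72 and 5.64 in vehicle rats, 5.92 and 6.12 at 30 mg/kg, 6.21, 5.75 and 6.06 at 100 mg/kg and 6.86 and 6.57 at 200 mg/kg. The 200 mg/kg rats lay above all other rats, whose groups overlapped. Because these 2 rats also made it a member (its mean was 6.09 over all arrays and 5.93 over the other 8), the difference of 0.93 at 200 mg/kg is given as a description with no test. A second, dimmer probe set gave 0.92 at 200 mg/kg and -0.40 at 100 mg/kg.

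Slc39a7, which releases zinc from the endoplasmic reticulum, was at 9.07, 9.05 and 9.23 in vehicle rats, 8.36 and 8.86 at 30 mg/kg, 8.51, 8.53 and 8.45 at 100 mg/kg and 8.85 and 8.90 at 200 mg/kg. All 7 treated rats lay below every vehicle rat. The log2 fold change was -0.50 ± 0.17 (SE), -0.62 ± 0.15 and -0.24 ± 0.17, with adjusted p-values by limma of 1, 0.153 and 0.559, the second of which was 0.0463 without vehicle rat 1. Slc39a4, the zinc importer of the brush border, was at 10.22, 9.82 and 10.00 in vehicle rats and 10.29 and 10.42 at 200 mg/kg, apart by little, with a log2 fold change of 0.34 ± 0.19 (SE).

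Slc30a1, the zinc exporter of the plasma membrane, was named because it had the highest member value at 100 mg/kg. It was at 7.17, 5.97 and 5.01 in vehicle rats, 6.09 and 6.22 at 30 mg/kg, 7.01, 6.79 and 7.74 at 100 mg/kg and 6.70 and 7.27 at 200 mg/kg, so the fold change of 1.13 ± 0.49 (SE) went with a wide vehicle range that reached into the treated groups. Slc30a4 and Slc30a5, both carriers of zinc into vesicles, lay above every vehicle rat at both upper doses. Their log2 fold changes were 0.24 and 0.43 at 100 mg/kg and 0.38 and 0.28 at 200 mg/kg. For Slc30a5, 200 mg/kg rat 2 (8.36) lay close to vehicle rat 2 (8.29). Slc39a8, which takes in zinc and manganese, was lower at 200 mg/kg (8.41 and 9.04) than at 100 mg/kg (9.38, 9.52 and 9.57), with both groups overlapping vehicle.

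For iron, Slc40a1, the basolateral exporter, was at 6.94, 7.08 and 7.95 in vehicle rats, 8.40, 8.26 and 7.75 at 100 mg/kg and 7.31 and 8.38 at 200 mg/kg, and Slc11a2, the brush border importer, was at 6.56, 7.44 and 7.22 in vehicle rats, 7.25, 6.66 and 6.04 at 100 mg/kg and 6.87 and 7.33 at 200 mg/kg. Both overlapped with vehicle at each dose. The 2 probe sets of Slc11a2 differed in sign at 100 mg/kg (-0.42 and 0.43). For copper, the brightest probe set of Slc31a1, the importer, lay between 10.22 and 10.58 on all arrays, whereas its other 3 probe sets gave log2 fold changes of 0.59, 0.88 and 1.48 at 100 mg/kg.

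The 19 organic anion and cation carriers had medians of 0.02, 0.14 and 0.07. Slc6a8, which takes up creatine, was at 11.28, 10.98 and 10.71 in vehicle rats and 11.37, 11.40 and 11.54 at 100 mg/kg, apart from vehicle by little. Slc13a2, the citrate and succinate carrier of the brush border, was at 9.86, 9.21 and 8.63 in vehicle rats, and Slc22a18, an organic cation carrier, at 9.13, 8.38 and 8.16. Both overlapped with vehicle at each dose, and Slc22a18 was called at 100 mg/kg without vehicle rat 1. Slc16a1, which carries lactate, butyrate and other monocarboxylates, was nearly level at the upper doses (-0.03 and 0.01) and lay at 9.08 and 8.80 at 30 mg/kg, below the vehicle rats at 9.41, 9.13 and 9.21.

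Of the organic anion carrying polypeptides, Slco2b1, an uptake route for drugs in the intestine, was at 7.87, 7.71 and 7.37 in vehicle rats, 7.91, 7.61 and 7.85 at 100 mg/kg and 7.16 and 7.51 at 200 mg/kg, and its second probe set had the opposite sign at 200 mg/kg (-0.31 and 0.18). Slco3a1, which carries prostaglandins and other anions, was at 6.70, 7.11 and 7.41 in vehicle rats, 7.29 and 7.28 at 30 mg/kg, 6.52, 6.77 and 6.56 at 100 mg/kg and 6.44 and 5.61 at 200 mg/kg. Only at 200 mg/kg was Slco3a1 below every vehicle rat, with a log2 fold change of -1.04 ± 0.27 (SE) and an adjusted p of 0.228 by limma. Vehicle rat 1 was its lowest vehicle rat, as it was for the smooth muscle score. Between 200 and 100 mg/kg, however, Slco3a1 lay lower (-0.59) while 13 of 13 smooth muscle genes lay higher. The part of muscle content in the values of Slco3a1 was not tested. Slc5a12, a lactate carrier named as the member with the top value of this class at 200 mg/kg (0.89 ± 0.57, SE), overlapped with vehicle.

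The nucleotide sugar class held 16 members of the Slc35 family, with medians of -0.04, 0.18 and 0.09. Some carriers of this family supply the Golgi and endoplasmic reticulum with substrates for glycosylation, and others are orphans or carry something else. Slc35b1, which carries ATP into the endoplasmic reticulum, was at 9.88, 9.38 and 8.93 in vehicle rats, 9.27 and 9.45 at 30 mg/kg, 10.06, 9.92 and 10.16 at 100 mg/kg and 10.03 and 10.23 at 200 mg/kg. All 5 rats at the upper doses lay above every vehicle rat, though vehicle rat 1 was close to the lowest of them. Its log2 fold change was 0.65 ± 0.22 (SE) and 0.73 ± 0.25 at these doses, with adjusted p-values by limma of 0.221 and 0.308, which were 0.024 and 0.0468 without vehicle rat 1, and a second probe set gave 0.30 and 0.40.

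Goblet cell genes, 8 of 8 listed, moved alongside the upper doses, with scores of 0.08, -0.03 and -0.05 in vehicle rats, -0.19 and -0.94 at 30 mg/kg, 0.43, 0.20 and 0.37 at 100 mg/kg and 0.65 and 0.72 at 200 mg/kg. Their part in the values of Slc35b1 and other carriers was not tested. Slc35f5, an orphan of the family, overlapped with vehicle at each dose. Slc35c2, a Golgi carrier, was at 8.83, 7.91 and 8.05 in vehicle rats, 8.05, 8.19 and 8.26 at 100 mg/kg and 8.91 and 8.77 at 200 mg/kg, so that the upper doses were apart from each other but not from vehicle.

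Among the 18 vitamin and lipid carriers, with medians of 0.08, 0.16 and 0.10, Slc23a4, of the ascorbate and nucleobase carrier family, was at 8.41, 8.12 and 7.84 in vehicle rats, 8.12 and 9.28 at 30 mg/kg, 8.58, 8.89 and 8.82 at 100 mg/kg and 8.95 and 8.86 at 200 mg/kg. Both upper doses lay above vehicle, with log2 fold changes of 0.64 ± 0.28 (SE) and 0.78 ± 0.31 and adjusted p-values by limma of 0.276 and 0.366. Slc27a4, the fatty acid carrier of the enterocyte, was at 11.18, 11.39 and 11.58 in vehicle rats, 10.92, 11.12 and 11.12 at 100 mg/kg and 11.15 and 11.09 at 200 mg/kg. It was below vehicle at both doses, close to vehicle rat 1 at 200 mg/kg, and its log2 fold changes were -0.33 ± 0.14 (SE) and -0.27 ± 0.15.

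Slc5a6, the biotin and pantothenate carrier, was at 8.46, 7.93 and 7.88 in vehicle rats and 8.42, 8.68 and 8.54 at 100 mg/kg, overlapping through vehicle rat 1. Slc46a1, the proton-driven folate carrier, was at 9.74, 9.35 and 9.17 in vehicle rats and at 8.60 and 9.80 at 200 mg/kg, where the rats lay on both sides of vehicle. In the group of other members, Slc18b1, a vesicular polyamine carrier, and Slc49a4 differed little (log2 fold changes at 100 mg/kg of 0.06 and 0.06). Slc66a1, a lysosomal carrier of cationic amino acids, was above every vehicle rat at 30 mg/kg and overlapped at the upper doses. Its log2 fold changes were 0.51 ± 0.21 (SE), -0.51 ± 0.18 and -0.37 ± 0.21, while its second probe set had the opposite sign each time (-0.14, 0.35 and 0.22).

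The pumps, channels and partner proteins that serve the carriers were looked at with the same fit. Of 17 measured among 23 listed, 0 were called by limma at any dose, and the median log2 fold change was 0.07, 0.14 and 0.16. Atp1b1, the beta subunit of the sodium pump, lay above every vehicle rat at both upper doses, with log2 fold changes of 0.44 and 0.49. Fxyd3, a regulator of the pump, did so too, with 0.47 and 0.73. At 30 mg/kg, though, Fxyd3 lay below every vehicle rat, with -0.59. Kcnq1, a potassium channel, lay below every vehicle rat at both upper doses, with -0.61 and -0.70. Of 13 measured transcription factors of nutrient absorption, 0 were called. Cdx1, which drives intestinal genes, lay above every vehicle rat at the upper doses, with log2 fold changes of 0.60 and 0.61. Gata6 did so at 100 mg/kg, with 0.86. At each upper dose 10 of the 13 lay above the vehicle mean and 3 below. Among those below were the brighter Cdx2 (-0.33 and -0.33) and Hnf4a (-0.07 and -0.18), both overlapping with vehicle. Of 10 measured genes of sugar metabolism, 0 were called, and the lowest adjusted p was 0.0876 by limma for Hk1, which phosphorylates glucose, at 200 mg/kg (log2 fold change -1.28). The related but dimmer Hk2 lay above every vehicle rat at that dose, with a log2 fold change of 0.93.

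Of the 133 members, 44 had more than 1 probe set, and 32 had more than 1 that was tested. Within these 32, probe sets of a gene differed in sign for 9, 11 and 9 genes at 30, 100 and 200 mg/kg. At the edge of the rule, the members just inside were Slc2a9 with a mean of 6.03 and the heme carrier Slc48a1 with 6.08, and the genes just outside were the folate carrier Slc19a1 and the potassium chloride cotransporter Slc12a5, at 5.998 and 5.997. All 133 members passed the filter on dim probe sets, 124 of them were at or above 6 in every group mean, and 9 were below it in at least 1. The brush border carrier Slc6a19 was not analysed here.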

How the data were processed

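RNA from the jejunum of 10 rats was hybridised to Affymetrix RAE230 2.0 arrays, 1 rat per array. The authors processed the scans in Rosetta Resolver 7.2 and deposited log10 intensities for 29559 probe sets, which were converted here to log2. The program's probe summary and array scaling are not given in the sources used here. A second deposited table holds the authors' own fold changes of single rats and was not used. Arrays have no depth, and their number limits the precision.

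The platform annotation named 1 gene for 19952 probe sets, several for 428 and none for 9179, and only the first kind was used. All 133 member symbols were found in the reference gene table. The members and gene lists were chosen with earlier results of these data known, and lists and classes were written from general knowledge. Probe sets in the lowest 40% by mean were left out, and limma 3.58.1 in R 4.3.3 was run on the remaining 17736 with 1 mean per group over all 10 arrays, with two-sided tests adjusted by Benjamini-Hochberg over all probe sets tested. A log2 fold change is a difference of group means, given with its SE, and a score is the mean log2 difference of a list's genes from the vehicle mean. Groups were said to be apart when every rat of a dose lay on 1 side of every vehicle rat. The test was checked on simulated data. The methods' t-test was run on the same values. Tables used pandas 2.3.3 under Python 3.11.15, and plots used matplotlib 3.10.9.

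Named were a list of 30 absorptive carriers, of which 28 were members, the 2 brightest of each class, and per comparison up to 6 members in each direction with the smallest p among those with groups apart and a log2 fold change of at least 0.5, and up to 3 genes of each list of partner genes. Slc2a9, Slc5a11, Slc50a1, Slc6a20a, Slc30a1, Slc30a4, Slc30a5, Slc29a3, Slc5a12, Slc5a5 and Slc35e1 were added after their values were seen, as was the fit of group overlap without vehicle rat 1. Alternatives changed the normalization, blanks, pseudocount, filter, array weights, variance prior, rat number block, probe set choice and member level, and left out each rat in turn.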

Additional observations from a re-analysis of the deposited data

Results flagged for a closer look

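Members were looked at again when all rats of 1 dose lay on 1 side of every vehicle rat and all rats of another dose on the other side. The difference between 200 and 100 mg/kg was tested by limma, and those with 30 mg/kg were not tested. Slc16a10, the aromatic amino acid carrier, lay below vehicle at 100 mg/kg and above it at 200 mg/kg, a log2 difference of 1.82 with an adjusted p of 0.0685 by limma. Its difference of 100 from 30 mg/kg was -1.15. Slc8a2, a sodium and calcium exchanger, lay above vehicle at 100 mg/kg and below it at 200 mg/kg, a difference of -0.87 with an adjusted p of 0.402 by limma.

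Slc2a4, the glucose carrier of muscle and fat, lay above vehicle at 30 mg/kg and below it at both upper doses, with differences from 30 mg/kg of -1.50 at 100 mg/kg and -1.18 at 200 mg/kg. The smooth muscle score was 0.40 and 0.06 at 30 mg/kg, and its part in this was not tested. Slc16a6, a monocarboxylate carrier family member, was at 6.27 and 5.65 at 30 mg/kg against 6.45, 6.33 and 6.43 in vehicle rats and lay above them at the upper doses, with differences from 30 mg/kg of 0.73 and 0.88. Slc35e1, of the nucleotide sugar family, was at 8.07 and 8.12 at 30 mg/kg, below the vehicle rats at 8.13, 8.13 and 8.25, and at 8.33, 8.34 and 8.27 at 100 mg/kg, above them, a difference of 0.22.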

How the results depend on the processing

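The counts of called members depended on vehicle rat 1 and on array weights. With array weights, which gave vehicle rat 2 a weight of 8.34, 60 members were called at 100 mg/kg and 6 at 200 mg/kg (39.4% and 3.15% of all probe sets), and 44 in the F test. Without vehicle rat 1, 16 were called at 100 mg/kg and 5 at 200 mg/kg (12.5% and 2.38% of all), and 7 in the F test. The 6 with array weights and the 5 without vehicle rat 1 both include Slc30a2, which was a member only through the 200 mg/kg rats. For the F test, the share of all probe sets was not counted under these settings, so its counts have no background here. Leaving out each rat in turn gave 0 to 16 members at 100 mg/kg, 0 to 5 at 200 mg/kg, 0 to 1 between 200 and 100 mg/kg, 0 to 7 in the F test and 0 at 30 mg/kg. Between 200 and 100 mg/kg, 1 member, Slc16a10, was called with an intensity trend in the variance prior, with log2(intensity + 16), with the lowest 60% of probe sets left out and without 100 mg/kg rat 1. Other settings called 0 members, as did the methods' t-test after adjustment.

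With the rat number as a replicate block, 0 members were called in any comparison and the medians were 0.04, 0.12, 0.09 and 0.02. Same-numbered rats were different animals, and over 13 such pairs their deviations correlated between -0.31 and 0.24, with 4 above 0.1. In groups of 2 rats the deviations mirror each other, so these correlations cannot show whether same-numbered rats were processed together. The labels do not say. Leaving out single rats moved the member median between -0.07 and 0.16 at 30 mg/kg (-0.07 without 30 mg/kg rat 2), 0.08 and 0.22 at 100 mg/kg, 0.04 and 0.21 at 200 mg/kg and -0.01 and 0.07 between 200 and 100 mg/kg, and no setting moved it by more than the SD of the vehicle rats. The nucleoside median at 200 mg/kg was 1.44 without rat 1 of that dose and 0.23 without rat 2.

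Without vehicle rat 1, groups at 30 mg/kg were apart for 25 members higher (18.8%, background 15.6%) and 12 lower (9.02%, background 17.6%). At 100 mg/kg the counts were 61 (45.9%, background 27.1%) and 20 (15.0%, background 27.4%). At 200 mg/kg they were 54 (40.6%, background 26.1%) and 17 (12.8%, background 26.8%). The 54 include Slc30a2 and Slc2a9, which were members only through the 200 mg/kg rats. Of 113 fold changes of named carriers, 32 were called under at least 1 setting. Except for Slc16a10 between 200 and 100 mg/kg, these calls came only with array weights or without vehicle rat 1. Those settings called 39.4% and 12.5% of all probe sets at 100 mg/kg, and 3.15% and 2.38% at 200 mg/kg. Some carriers were named for a small p, so the 32 have no matching background. Of the 113 fold changes, 33 changed sign under at least 1 setting. Among those larger than their SE, only Slc28a1 and Slc40a1 did, and they turned to -0.12 and -0.015 at 200 mg/kg without 200 mg/kg rat 2 (from -0.12 to 1.44 and from -0.015 to 1.06 with each rat left out in turn). The causes were not tested.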
